A study of Mus musculus with 6 samples.

Results

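Hemoglobin transcripts were followed through 6 single-cell libraries of kidney leukocytes, 3 of mice whose kidneys were injured by rhabdomyolysis, the breakdown of muscle, and 3 of control mice. The genes were selected by name from the 32285 genes of the matrices, and all 5 were found: the adult alpha-globin genes Hba-a1 (ENSMUSG00000069919) and Hba-a2 (ENSMUSG00000069917), the adult beta-globin genes Hbb-bs (ENSMUSG00000052305) and Hbb-bt (ENSMUSG00000073940), and Alas2 (ENSMUSG00000025270), the erythroid enzyme of the first step of heme synthesis. They had been selected because their counts differed between the groups, so every difference between rhabdomyolysis and control libraries given for them is a description without a test.

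All mice were 8 weeks old and of strain C57BL/6J. Kidneys had been dissociated with enzymes, red cells had been lysed with a buffer, and live cells positive for CD45, a surface protein of leukocytes that mature red cells lack, had been sorted before droplet-based 3′ sequencing. How rhabdomyolysis was induced, when the kidneys were taken, and whether the libraries of a group came from separate mice are not given in the sources used here, so a p-value here reflects how libraries vary, in part perhaps technically. Where 3 values stand for a group, they are those of replicates 1, 2 and 3.

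Hemoglobin carries oxygen as a tetramer of alpha and beta chains, each holding a heme, and its messenger RNAs are the most abundant transcripts of maturing red cells. Reticulocytes, young red cells that have lost their nucleus, still hold these messenger RNAs and pass with the blood through every organ. Macrophages engulf red cells and recycle heme and iron, a route that rhabdomyolysis also loads with the heme of muscle myoglobin. A hemoglobin unique molecular identifier (UMI), the count of 1 captured RNA molecule, can therefore lie in a red cell, in free RNA that entered any droplet, in a leukocyte that took up RNA, or in a leukocyte that made it.

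The promoters are shown because the alpha genes, and the beta genes, are copies of each other. Each line holds the 120 bases before the RefSeq start on build GRCm38.p6, 5′ to 3′ on the strand of the gene. Capitals mark 4 motifs searched on both strands: AGATAA is a motif of GATA factors and CACCC a motif of KLF factors, while CCAAT and the TATAA element are general promoter boxes. In Alas2 the CACCC matches are on the reverse strand and overlap.
Hba-a1, chr11:32283552-32283671, plus strand: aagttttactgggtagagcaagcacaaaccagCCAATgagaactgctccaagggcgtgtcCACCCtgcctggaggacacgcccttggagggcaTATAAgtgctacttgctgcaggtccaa
Hba-a2, chr11:32296372-32296491, plus strand: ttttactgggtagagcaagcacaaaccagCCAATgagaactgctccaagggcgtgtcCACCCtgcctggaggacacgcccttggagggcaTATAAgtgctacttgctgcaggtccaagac
Hbb-bs, chr7:103827929-103828048, minus strand: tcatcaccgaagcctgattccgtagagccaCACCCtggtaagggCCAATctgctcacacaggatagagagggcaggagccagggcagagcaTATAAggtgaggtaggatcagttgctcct
Hbb-bt, chr7:103813924-103814043, minus strand: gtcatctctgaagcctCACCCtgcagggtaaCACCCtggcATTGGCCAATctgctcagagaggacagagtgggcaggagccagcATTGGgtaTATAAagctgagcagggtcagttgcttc
Alas2, chrX:150547297-150547416, plus strand: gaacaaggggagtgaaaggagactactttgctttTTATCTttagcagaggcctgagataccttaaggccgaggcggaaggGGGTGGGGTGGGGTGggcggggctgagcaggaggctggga
The windows of Hba-a1 and Hba-a2 were identical over 117 of 117 bases at a shift of 3 bases, while those of Hbb-bs and Hbb-bt matched at 88 of 119 bases at a shift of 1 base. The CCAAT box, the CACCC motif and the TATAA element lay in all 4 globin windows, and AGATAA lay in Alas2 alone. Of 32851 mouse windows of the same length, 21.3% held the CCAAT box, 31.7% the CACCC motif, 11.8% the TATAA element and 4.36% the AGATAA motif. These matches are a description and not binding sites. The windows lie before the start, so their likeness does not bear on how reads are told apart. The transcripts of the alpha genes are near-identical too, so the split of their reads between Hba-a1 and Hba-a2 is uncertain.

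Gene UMIs per library came to 10816727, 15928192 and 22656666 in rhabdomyolysis libraries and 19427318, 17045151 and 16666253 in control libraries. Called cells numbered 1507, 2048 and 3547 in rhabdomyolysis libraries against 3916, 3382 and 3016 in control libraries. Classical monocytes, named from marker genes, made up 258, 308 and 441 of these in rhabdomyolysis libraries against 32, 20 and 27 in control libraries, so sums over all called cells compare different mixtures of cells.

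Over whole libraries, the 4 hemoglobin genes together counted 33958, 196222 and 25246 UMIs in rhabdomyolysis libraries and 6516, 2177 and 7320 UMIs in control libraries. This was 3139, 12319 and 1114 UMIs per 1e6 UMIs of the library (CPM) in rhabdomyolysis libraries, against 335, 128 and 439 CPM in control libraries. Every rhabdomyolysis library was thus above every control library, and rhabdomyolysis library 2 was far above the other 5. The log2 ratio of the group means was 4.20, and 2.82 without rhabdomyolysis library 2.

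The same order held for each gene. Hba-a1 had 645, 2366 and 223 CPM in rhabdomyolysis libraries against 74.6, 28.6 and 84.4 CPM in control libraries, and Hba-a2 had 440.2, 1736 and 163 CPM against 58.8, 20.8 and 66.9 CPM in controls. Hbb-bs had 1689, 6861 and 607 CPM in rhabdomyolysis libraries against 163, 66.4 and 240 CPM in control libraries, and Hbb-bt had 365, 1356 and 122 CPM against 39.1, 12.0 and 48.2 CPM in controls. Alas2 was far rarer, with 89, 399 and 68 UMIs in rhabdomyolysis libraries against 19, 4 and 19 UMIs in control libraries. For all 5 genes the groups did not overlap; of 11808 genes with a mean of at least 1 CPM, 15.8% stood above every control library in every rhabdomyolysis library and 45.8% below. Without the hemoglobin-rich barcodes described next, 0 of the 5 genes stood apart, where 16.2% of 11810 genes stood above and 45.3% below.

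Nearly all of this RNA sat in a few droplets. A barcode, the tag of 1 droplet, was called hemoglobin-rich with at least 50 UMIs of the 4 hemoglobin genes, a threshold set after the counts had been seen. There were 6, 32 and 5 such barcodes in rhabdomyolysis libraries and 3, 2 and 2 in control libraries, out of 534772, 595103 and 655673 barcodes with a UMI in rhabdomyolysis libraries and 690536, 718628 and 670927 in control libraries. They held 98.5, 93.1 and 94.6% of the hemoglobin UMIs of rhabdomyolysis libraries and 93.9, 71.9 and 78.9% of those of control libraries. A gap separated them from the rest: the lowest held 844, 151 and 90 hemoglobin UMIs in rhabdomyolysis libraries and 479, 56 and 252 in control libraries, while the highest barcode below the threshold held 22, 18 and 10 in rhabdomyolysis libraries and 19, 10 and 15 in control libraries.

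**Figure D1:**
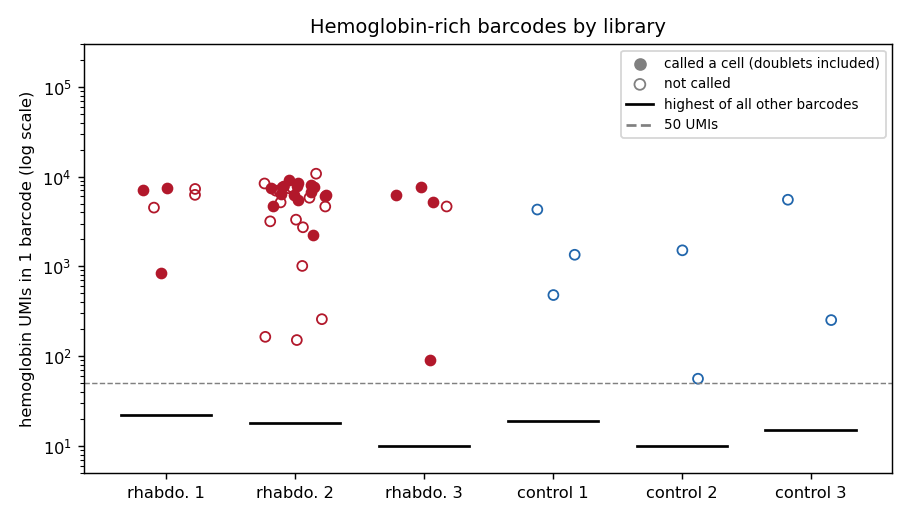
Hemoglobin UMIs (log axis) of every hemoglobin-rich barcode by library, rhabdomyolysis libraries on the left; filled points were called cells, black lines give the highest of all other barcodes, and the dashed line is the threshold of 50 UMIs. Rhabdomyolysis library 2 holds 32 of the 43 rhabdomyolysis barcodes, and no control barcode was called a cell.

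The numbers of rich barcodes in rhabdomyolysis libraries 1 and 3 were close to those of the controls, and the barcodes themselves held more. Hemoglobin UMIs per rich barcode had a median of 6245 (90 to 10764) over the 43 rhabdomyolysis barcodes and of 1346 (56 to 5521) over the 7 control barcodes. Within libraries these medians were 6657, 6318 and 5180 in rhabdomyolysis libraries against 1346, 782.5 and 2887 in control libraries. The groups of medians did not overlap, but each control median rests on 2 or 3 barcodes.

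Rich barcodes were mostly hemoglobin and poor in other genes. Hemoglobin made up a median of 79.8% (0.923 to 98.3%) of their UMIs in rhabdomyolysis libraries and 82.2% (23.3 to 97.8%) in control libraries. They held a median of 552 genes (41 to 3025) in rhabdomyolysis libraries and 110 genes (38 to 373) in control libraries. Malat1, an abundant RNA of the nucleus, was at 0 in 33 of the 43 rhabdomyolysis barcodes and in 7 of the 7 control barcodes. All 4 hemoglobin genes were detected in every rich barcode of both groups, and Alas2 in 39 of 43 rhabdomyolysis barcodes and 4 of 7 control barcodes.

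A minority in rhabdomyolysis libraries looked different. There, 8 barcodes held at least 10 Malat1 UMIs together with 1354 to 3025 genes and 7080 to 18240 UMIs, of which hemoglobin was 0.923 to 56.6%. No control barcode did so. Their droplets thus held the nuclear and other RNA of a leukocyte beside 90 to 6688 hemoglobin UMIs; engulfment of a red cell and capture of both cells in the same droplet cannot be told apart. T cell markers were at 0 UMIs in the rich barcodes of both groups, B cell markers at 0 in rhabdomyolysis and 2 in control barcodes.

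**Figure D2:**
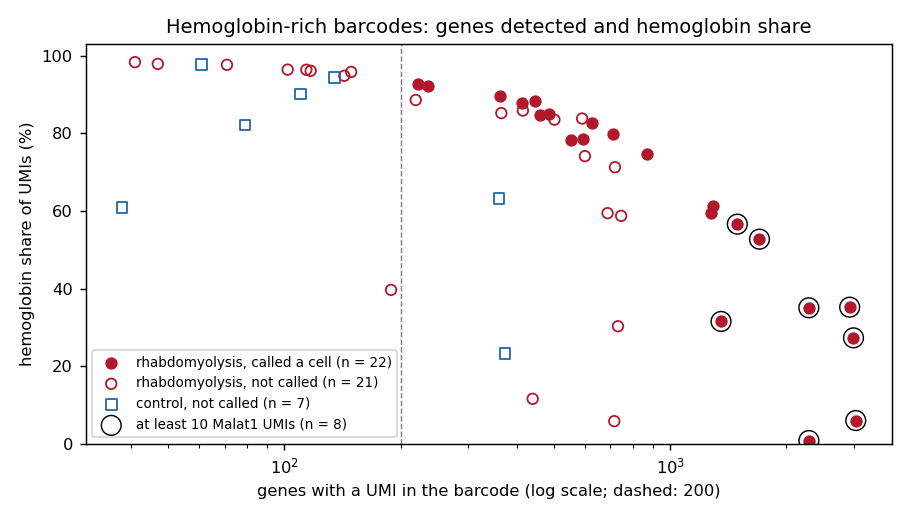
Genes with a UMI (log axis) against the hemoglobin share of UMIs in each hemoglobin-rich barcode; the dashed line is the minimum of 200 genes for a called cell, and rings mark the 8 barcodes with at least 10 Malat1 UMIs. Barcodes with few genes are mostly hemoglobin, and the ringed barcodes, all from rhabdomyolysis libraries, hold the most genes.

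Other red cell transcripts accompanied hemoglobin in the barcodes that it dominated, those with at least 50% hemoglobin among 20 or more UMIs. In rhabdomyolysis libraries 34 such barcodes held 50459 UMIs of other genes and were compared with the 20351 other barcodes of 23 to 11811 UMIs. By the ratio of their shares, the 10 leading genes included Bpgm, Rec114, Car2, Tent5c, Prxl2a, Ube2o, Ube2l6 and Fech, of which Bpgm, Car2, Tent5c, Ube2o, Ube2l6 and Fech are well-known red cell transcripts. Bpgm, the enzyme that makes the regulator of oxygen affinity in red cells, counted 329 UMIs (0.652% of other UMIs) in the dominated barcodes against 380 in the others, a ratio of shares of 632. Tent5c, a poly(A) polymerase, counted 99 UMIs against 291, and Fech, the enzyme that inserts iron into heme, 65 against 457. These genes were chosen by the ratio itself, so it supports nothing further.

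The 7 dominated barcodes of control libraries held 1485 UMIs of other genes, with 12 of Bpgm, 4 of Tent5c and 3 of Fech. Some erythroid genes were missing in both groups. Gata1, Klf1, Tal1, Gfi1b and Nfe2, transcription factors of erythroid development, were at 0 in all rich barcodes, as were Rhag and Kel of the red cell surface. Other factors of that list were not: Lmo2 had 1, 10 and 4 UMIs in the rich barcodes of rhabdomyolysis libraries and 0 in those of control libraries. Zfpm1, Ldb1 and Zbtb7a had at most 3 UMIs per library in rich barcodes. The embryonic globins Hba-x, Hbb-y and Hbb-bh1 were at 0 in all rich barcodes, and so was Mb, the muscle myoglobin that rhabdomyolysis releases as protein. Hbq1b, a theta-like globin, had 0, 5 and 1 UMIs in the rich barcodes of rhabdomyolysis libraries and 1, 0 and 0 in those of control libraries. Ptprc, the gene of CD45, had 3, 6 and 1 UMIs in them in rhabdomyolysis libraries and 0 in each control library; in the dominated barcodes it had 1 UMI in rhabdomyolysis libraries and 0 in control libraries.

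Surface tags gave a separate readout of the same droplets. The antibody tag for F4/80, a macrophage surface protein, had a median of 6, 15.5 and 37 counts in rich barcodes of rhabdomyolysis libraries, against 29, 16 and 12 in those of control libraries. Macrophages had 34, 45.5 and 70 counts in rhabdomyolysis libraries and 93, 62 and 49 in control libraries, and T cells 1, 1 and 1 against 3, 3 and 2. In all 6 libraries the rich barcodes thus lay between the T cells and the macrophages.

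Calling cells split the rich barcodes by group. The calls were made without the 5 genes and asked for at least 500 UMIs, 200 genes and a profile distinct from free RNA. They took in 3, 15 and 4 rich barcodes of rhabdomyolysis libraries and none of the 7 of control libraries. Among those of rhabdomyolysis libraries, 11 fell in Malat1-poor clusters, 4 in macrophages, 2 in neutrophils, 1 each in classical monocytes, conventional dendritic cells 2 and an unnamed cluster, and 2 were scored as doublets. As a result all called cells held 2149, 8928 and 1239 hemoglobin CPM in rhabdomyolysis libraries against 4.39, 3.95 and 3.51 CPM in control libraries, a log2 ratio of 10.02. Without the rich barcodes the values were 1.96, 18.04 and 2.64 CPM in rhabdomyolysis libraries against 4.39, 3.95 and 3.51 CPM in control libraries, and the groups overlapped. Over all barcodes of at least 500 UMIs, called or not, the ratio was 4.33, beside 10.02 for called cells, since 0 of the 7 rich control barcodes passed the cell filters.

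Free RNA was read from barcodes of 1 to 100 UMIs, too few for a cell. Without rich barcodes, hemoglobin took 597, 13116 and 1177 CPM there in rhabdomyolysis libraries, against 216, 351.5 and 1001 CPM in control libraries. Rhabdomyolysis library 2 was high, and rhabdomyolysis library 1 lay below control library 3, so the groups overlapped. Among the fewer barcodes of 11 to 100 UMIs they did not: hemoglobin took 2088, 2205 and 380 CPM (91, 213 and 41 UMIs) there in rhabdomyolysis libraries, against 179, 63.6 and 240.5 CPM (81, 42 and 128 UMIs) in control libraries, and rhabdomyolysis library 2 was close to library 1. Rhabdomyolysis libraries held 1703, 4658 and 4937 such barcodes and control libraries 23261, 35541 and 29813. The 91 UMIs of rhabdomyolysis library 1 lay in only 14 of these barcodes, up to 22 in 1 barcode. The 213 UMIs of rhabdomyolysis library 2 lay in 179 barcodes, up to 9 in 1 barcode. Over barcodes of 1 to 100 UMIs, the log2 ratio of group means was 3.21 with all barcodes and 0.73 without rhabdomyolysis library 2. Hbb-bs alone took 346, 8425 and 755 CPM in rhabdomyolysis libraries against 113.3, 232 and 602 CPM in control libraries. Alas2 had 1, 19 and 2 UMIs outside rich barcodes in rhabdomyolysis libraries and 2, 0 and 1 in control libraries, and none of them lay in a called cell of a named class.

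Among barcodes of 1 to 10 UMIs, libraries differed in how hemoglobin was spread. Its UMIs numbered 375, 12842 and 1252 in rhabdomyolysis libraries and 224, 506 and 1344 in control libraries. Barcodes of this range with a hemoglobin UMI numbered 270, 12613 and 1127 in rhabdomyolysis libraries and 119, 411 and 1235 in control libraries. Of these, 233, 12456 and 1080 in rhabdomyolysis libraries and 89, 382 and 1193 in control libraries held exactly 1. In control library 1 most of the 224 UMIs thus lay in barcodes with more than 1. In the other libraries most lay in barcodes with exactly 1. Barcodes 1 base away from a rich barcode, where errors in its reads would land, held 4.08, 0.521 and 1.55% of the low-barcode hemoglobin in rhabdomyolysis libraries and 1.97, 0 and 0% in control libraries.

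Leukocyte classes held little hemoglobin once rich barcodes were set aside. Cells had been clustered without the 5 genes, and a class name stands for cells like that type by their markers. Macrophages held 2.04, 21.3 and 2.60 CPM (5, 70 and 7 UMIs) in rhabdomyolysis libraries against 6.19, 2.92 and 1.36 CPM (40, 16 and 6 UMIs) in control libraries. Classical monocytes held 0, 10.7 and 2.47 CPM in rhabdomyolysis libraries against 0, 0 and 8.87 CPM in control libraries, and neutrophils 20.9, 7.73 and 10.1 CPM in rhabdomyolysis libraries, with under 20 neutrophils in each control library. T cells, of which none was hemoglobin-rich, held 7.11, 19.0 and 1.92 CPM in rhabdomyolysis libraries against 4.22, 8.44 and 8.70 CPM in control libraries. In each of these classes the groups overlapped or could not be compared, and 3 of the 4 had their highest value in rhabdomyolysis library 2, whose free RNA held the most hemoglobin.

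B cells held 0, 15.02 and 0 CPM in rhabdomyolysis libraries against 5.37, 11.4 and 4.97 CPM in control libraries. Malat1-poor clusters, whose barcodes carry leukocyte RNA but under 0.1% Malat1, held 1.10, 41.8 and 3.18 CPM in rhabdomyolysis libraries against 1.31, 3.76 and 3.37 CPM in control libraries. With rich barcodes these clusters held 15717, 47951 and 2766 CPM in rhabdomyolysis libraries, against 1.31, 3.76 and 3.37 CPM in control libraries. Macrophages with them held 2.04, 4385 and 36.0 CPM in rhabdomyolysis libraries, against 6.19, 2.92 and 1.36 CPM in control libraries. The 3 rich barcodes among the 627 macrophages of rhabdomyolysis library 2 thus held nearly all of that class's hemoglobin. Macrophages lay mainly in cluster 5 in rhabdomyolysis libraries and in clusters 1 and 3 in control libraries.

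**Figure D3:**
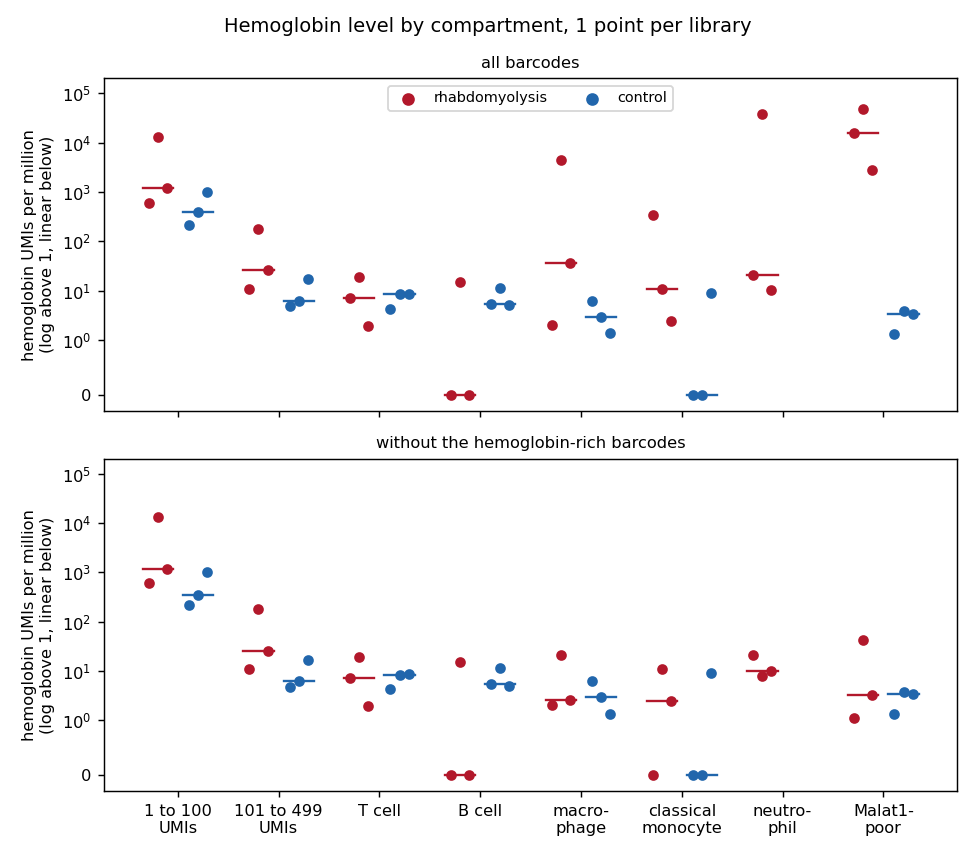
Hemoglobin CPM (log axis above 1) by barcode class and library with all barcodes (upper panel) and without hemoglobin-rich barcodes (lower panel); each point is 1 library, lines are group medians, and rhabdomyolysis stands left of control. Without rich barcodes the groups overlap in every class with both groups shown, and every leukocyte class lies far below the barcodes of 1 to 100 UMIs.

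Shares of cells were read beside depth. The share of macrophages with a hemoglobin UMI was 0.531, 6.73 and 0.617% in rhabdomyolysis libraries against 0.829, 0.546 and 0.517% in control libraries, beside 1.89, 5.97 and 0.680% against 0.903, 1.61 and 1.35% in T cells, which are not phagocytes. Median depth was 5723, 4685 and 7020 UMIs per macrophage in rhabdomyolysis libraries against 3546, 3566 and 4110 in control libraries, and 2421, 2984 and 3367 UMIs per T cell against 3766, 3762 and 3604. With each cell thinned to 1000 UMIs, the macrophage share was 0, 1.48 and 0% in rhabdomyolysis libraries against 0.182, 0.213 and 0.212% in control libraries. Thinned T cells stood at 1.02, 2.34 and 0% in rhabdomyolysis libraries against 0.394, 0.503 and 0.472% in control libraries. Before thinning, the macrophage share was below the T cell share in 5 of 6 libraries and above it in rhabdomyolysis library 2. After thinning, the macrophage share was at or below the T cell share in 6 of 6 libraries, with both at 0 in rhabdomyolysis library 3. The thinned T cell shares rest on 1, 3 and 0 cells in rhabdomyolysis libraries and 3, 3 and 3 in control libraries. Those of macrophages rest on 0, 9 and 0 cells and on 3, 3 and 2. In control libraries most T cell hemoglobin was Hba-a1 in a small set of cells, given below, so T cells cannot stand for background there.

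The hemoglobin of ordinary cells was also a small fraction of that of free RNA. Without rich barcodes, the macrophage level was 0.341, 0.162 and 0.221% of the level in barcodes of 1 to 100 UMIs in rhabdomyolysis libraries, and 2.87, 0.830 and 0.136% in control libraries. In T cells it was 1.19, 0.145 and 0.163% in rhabdomyolysis libraries and 1.95, 2.40 and 0.869% in control libraries. For comparison, kidney tubule genes stood in T cells at 39.5, 51.01 and 26.2% of their low-barcode level in rhabdomyolysis libraries. In control libraries they stood at 7.30, 8.09 and 8.00%. S100a8 and S100a9, neutrophil genes, stood in T cells at 0.155, 1.28 and 0.103% in rhabdomyolysis libraries and at 0.465, 0.339 and 0.440% in control libraries. Hemoglobin in T cells was thus below the tubule genes in all 6 libraries, and above the neutrophil genes in 5 of 6. The tubule genes stood above their low-barcode level in B cells of rhabdomyolysis libraries 1 and 3, and below it in B cells elsewhere. In classical monocytes they stood above it in rhabdomyolysis libraries 2 and 3 and below it elsewhere. Whether leukocytes make some of the tubule genes was not tested, so the comparison with them sets no background level. In control libraries the T cell level was mostly Hba-a1 (8 of 13, 18 of 20 and 22 of 22 UMIs), unlike the low barcodes, which Hbb-bs led.

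Within a library, no class was shown to differ from T cells. The log2 ratio of a class to the T cells of its own library (0.5 UMI added to each count) was tested over libraries with an exact sign-flip test, two-sided, in which 6 libraries can reach p = 0.031 at best. Macrophages exceeded T cells by 0.97 ± 4.03 (SD, n = 6; higher in 3 of 6; exact p = 0.625, adjusted over 5 pairs 0.781). Without rich barcodes they stood at −0.92 ± 1.28 (higher in 2 of 6; exact p = 0.219, adjusted 0.417). Neutrophils exceeded T cells by 4.78 ± 5.32 (n = 3, higher in 3 of 3; exact p = 0.25, the smallest that 3 libraries allow) and by 0.76 ± 1.69 without rich barcodes (higher in 2 of 3; exact p = 0.5). Malat1-poor barcodes stood at 4.76 ± 6.45 and, without rich barcodes, at −0.76 ± 1.22 (n = 6 each; exact p = 0.25 for both). With all barcodes their ratios were 10.8, 11.2 and 9.91 in rhabdomyolysis libraries and −1.15, −0.98 and −1.23 in control libraries. The groups thus pointed in opposite directions, and a test that joins them cannot show a difference present in a single group. Monocytes stood at 0.55 ± 2.37 (exact p = 0.875) and, without rich barcodes, at −1.23 ± 2.17 (exact p = 0.156). B cells, with no rich barcode, stood at −0.16 ± 0.49 (exact p = 0.4375). The SDs were large, so these tests do not show that the classes are alike. The T cell level of control libraries was mostly Hba-a1 in a small set of cells, as given below.

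The 4 genes did not stay in 1 ratio across classes, a pattern that was noticed in the counts and was not tested. In barcodes of 1 to 100 UMIs, Hbb-bs led with 64.0% of the hemoglobin UMIs in rhabdomyolysis libraries and 60.5% in control libraries, and Hba-a1 took 13.4% and 17.1%. Macrophages were similar, with Hbb-bs at 65.9% of 82 UMIs in rhabdomyolysis and 53.2% of 62 UMIs in control libraries. T cells were not: Hba-a1 made up 6 of 11 hemoglobin UMIs in rhabdomyolysis libraries and 48 of 55 in control libraries (87.3%, exact binomial 95% interval 75.5 to 94.7, counting error only). By library, Hba-a1 held 2 of 2, 3 of 8 and 1 of 1 UMIs in T cells of rhabdomyolysis libraries and 8 of 13, 18 of 20 and 22 of 22 in those of control libraries.

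These Hba-a1 UMIs fell into a small set of cells. Of the 6 T cell-class cells with Hba-a1 in rhabdomyolysis libraries and the 25 in control libraries, all 6 and 23 lay in cluster 9. T cell cluster 4 had no Hba-a1 UMI in any of the 6 libraries. In control libraries it held 541, 475 and 482 cells, more than cluster 9. In rhabdomyolysis libraries it held 7, 10 and 19 cells, fewer than cluster 9 and too few to read. A cell held up to 1 Hba-a1 UMI in rhabdomyolysis libraries and up to 2, 5 and 6 in control libraries. Over both groups, 26 of the 31 cells had a UMI of Gata3, 17 of Il1rl1, the receptor of interleukin 33, and 14 of Hs3st1, genes from the marker list of group 2 innate lymphoid cells. Only 2 of the 31 had a UMI of Cd3e and 3 of Cd3d, which T cells carry, against 297 and 426 of the 686 cells without Hba-a1 in cluster 9 and 1312 and 1619 of the 1737 in the other T cell clusters. Other markers were mixed: 9 of the 31 had a UMI of Cd3g and 16 of Trbc2, both T cell genes, while of the innate lymphoid list 4 had Areg, 2 Il13 and 0 Il5. The 31 cells are thus given no name here.

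Cells were then counted by those markers and not by Hba-a1. Cells of the T cell class with at least 3 of the 8 markers and no UMI of Cd3e, Cd3d or Cd3g numbered 35 in rhabdomyolysis and 79 in control libraries; this rule was chosen after the values had been seen. Hba-a1 was detected in 1 of the 35 (2.86%, interval 0.0723 to 14.9%) and in 18 of the 79 (22.8%, 14.1 to 33.6%). Among the other cells of the class it was detected in 5 of 352 (1.42%) in rhabdomyolysis libraries and 7 of 1988 (0.352%) in control libraries. The cells with Hba-a1 described above are counted again here, by a rule chosen once their markers were known. The contrast with the other cells of the class is thus no separate support. By library, 1 of 9, 0 of 13 and 0 of 13 marker cells had Hba-a1 in rhabdomyolysis libraries, against 4 of 32, 7 of 24 and 7 of 23 in control libraries. Beta-globin UMIs were at 0 in all of these marker cells. Hba-a2, whose transcript is near-identical, had 2 UMIs in the marker cells of control library 2 and none in the other 5 libraries.

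B cells had a different gene. Hbb-bt made up 17 of 20 hemoglobin UMIs in B cells of control libraries (85.0%, exact binomial 95% interval 62.1 to 96.8), or 7 of 7, 7 of 9 and 3 of 4 UMIs by library, against 10.4% in their barcodes of 1 to 100 UMIs. It lay in 11 of 912 control B cells, up to 2 UMIs a cell. In rhabdomyolysis libraries 0 of 219 B cells had an Hbb-bt UMI, and their 3 hemoglobin UMIs were of Hbb-bs. A count of 0 of 219 allows a share of up to 1.37%, beside the 1.21% of control B cells, so no difference between the groups is shown. The source of these UMIs was not tested.

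**Figure D4:**
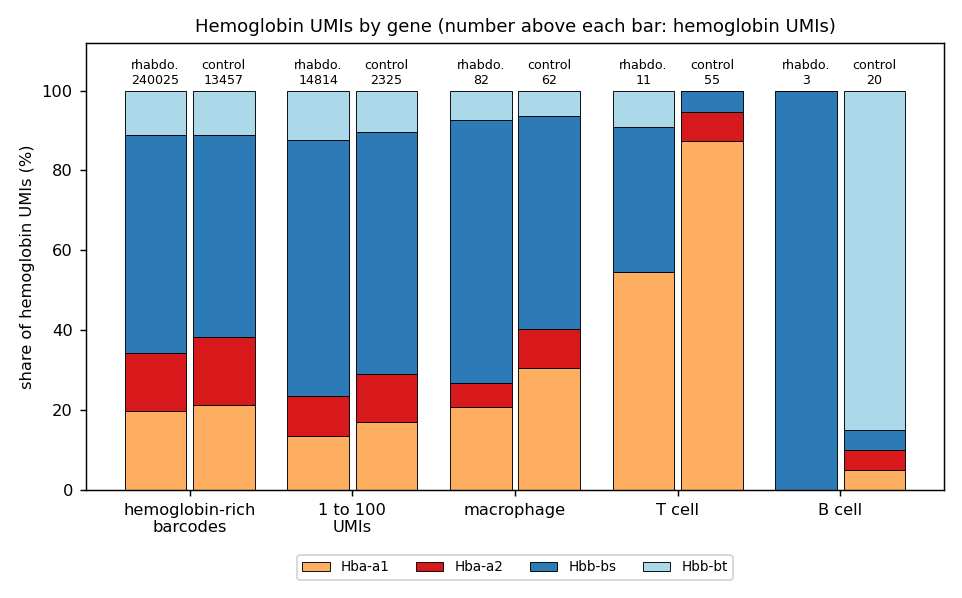
Share of each of the 4 genes among hemoglobin UMIs by barcode class, rhabdomyolysis left of control, with the number of UMIs above each bar; classes other than the left-most are without hemoglobin-rich barcodes. Hbb-bs leads in rich and low barcodes and in macrophages, Hba-a1 in T cells and Hbb-bt in control B cells; the 3 UMIs of rhabdomyolysis B cells are too few to read.

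Rich barcodes differed from the remainder in the balance of chains. Alpha-globin UMIs were 34.6, 34.01 and 35.3% of hemoglobin in rich barcodes of rhabdomyolysis libraries and 39.9, 41.5 and 35.9% in those of control libraries. Outside rich barcodes they were 31.3, 23.6 and 23.7% in rhabdomyolysis libraries and 38.5, 31.4 and 29.2% in control libraries. The share was lower outside rich barcodes in 6 of 6 libraries. Alas2 came to 2.62, 2.03 and 2.69 UMIs per 1000 hemoglobin UMIs in rhabdomyolysis libraries and 2.92, 1.84 and 2.60 in control libraries, so the ratio of the heme enzyme to globin overlapped between groups although both counts differed.

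Genes of heme synthesis, red cells and heme handling were counted from 7 lists, with edgeR's quasi-likelihood test over all genes and a call at a Benjamini-Hochberg adjusted p under 0.05. In all called cells 36 of 70 tested list genes changed, 25 higher and 11 lower in rhabdomyolysis libraries, where 46.4% of 12319 genes changed. In free RNA 21 of 46 changed, 16 higher and 5 lower, where 29.9% of 7033 genes changed, and in macrophages 27 of 59, 20 higher and 7 lower, where 35.3% of 10007 genes changed. In called cells the calls over all genes were 2838 higher and 2874 lower with trimmed-mean (TMM) scaling, and 1702 higher and 4538 lower with library totals, which move the median log2 change of all genes from −0.03 to −0.33. The list genes then stood at 21 higher and 19 lower. In called cells and free RNA the largest count was that of genes for the uptake and breakdown of hemoglobin and heme. In macrophages it was that of red cell cytosol and late erythroid genes, of which 6 of 14 rose and 1 fell. This lead was lost without rich barcodes, where 4 of the 14 rose and 1 fell. There 4 genes rose and 2 fell both for uptake and breakdown and for engulfment receptors.

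Of the uptake and breakdown list, 10 of 16 tested genes rose and 2 fell in called cells, beside 23.0% and 23.3% of all genes. The median log2 change of the list was 0.74 beside −0.03 over all genes. In free RNA 9 of 12 rose and none fell, beside 15.8% and 14.1% of all genes. Haptoglobin, Hp, which binds free hemoglobin, had 283, 333 and 227 CPM in called cells of rhabdomyolysis libraries against 7.72, 9.67 and 7.37 CPM in control libraries (log2 change 5.38 ± 0.20 SE, edgeR adjusted p = 6.81e-06). Lrp1, the receptor of heme bound to hemopexin, rose by 2.57 ± 0.19 (edgeR adjusted p = 4.86e-05). The ferritin genes Fth1 and Ftl1, whose products store iron, rose by 1.74 ± 0.15 and 1.21 ± 0.10 on the log2 scale (edgeR adjusted p = 8.50e-05 and 8.20e-05). Hmox1, heme oxygenase, rose by 1.62 ± 0.26 in free RNA (edgeR adjusted p = 0.000166). Hp is abundant in neutrophils and monocytes, which were more numerous in rhabdomyolysis libraries; their part in these sums was not tested.

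Macrophages, which lay mainly in cluster 5 in rhabdomyolysis libraries and in clusters 1 and 3 in control libraries, gave a smaller count for the same list. In them 4 of 15 rose and 2 fell, beside 17.7% and 17.6% of all genes. The median log2 change of the list was −0.04 beside −0.05 over all genes. Fth1 had 31111, 33905 and 21701 CPM in macrophages of rhabdomyolysis libraries against 8802, 8617 and 9793 CPM in control libraries (log2 change 1.76 ± 0.20, edgeR adjusted p = 0.000711). Lrp1 rose by 1.55 ± 0.24 (edgeR adjusted p = 0.00241) and Blvra, biliverdin reductase, by 0.93 ± 0.22 (edgeR adjusted p = 0.0128), a call lost without rhabdomyolysis library 1 or any 1 control library. Hmox1 stood at 0.61 ± 0.24 and did not pass (edgeR adjusted p = 0.0750). Spic, the transcription factor of iron-recycling macrophages, fell to 4.07, 1.51 and 1.85 CPM in rhabdomyolysis libraries, against 12.8, 13.9 and 13.4 CPM in control libraries (log2 change −2.39 ± 0.35, edgeR adjusted p = 0.00187). The other gene to fall, named after its value was seen, was Slc40a1, the iron exporter ferroportin (−3.12 ± 0.77, edgeR adjusted p = 0.0145), a call lost without rhabdomyolysis library 1 (edgeR adjusted p = 0.0691) or control library 2.

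Receptors for the engulfment of red cells moved in both directions: 4 of 9 rose and 2 fell in called cells, where 23.0% of all genes rose and 23.3% fell, and 4 of 8 rose and 2 fell in macrophages, where 17.7% and 17.6% did. Msr1, a scavenger receptor, had 183, 130 and 208 CPM in macrophages of rhabdomyolysis libraries against 20.4, 22.6 and 20.4 CPM in control libraries (log2 change 3.11 ± 0.21, edgeR adjusted p = 0.000116). Itgam, a complement receptor chain, rose by 2.67 ± 0.21 in macrophages (edgeR adjusted p = 0.000161). Axl, a receptor for dying cells, fell by 1.22 on the log2 scale (SE 0.24, edgeR adjusted p = 0.00575) and Sirpa, which reads the CD47 signal of intact red cells, fell by 0.75 (SE 0.18, edgeR adjusted p = 0.0144), a call lost without any 1 control library. Stab2, another scavenger receptor, was low in called cells of both groups and fell by 3.64 (SE 0.66, edgeR adjusted p = 0.00256).

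Heme synthesis genes other than Alas2 rose in 5 of 14 cases and fell in 1 in called cells, no larger a share than the 46.4% of all genes, with a median log2 change of 0.34 beside −0.03 over all genes. Alas1, the housekeeping form of the enzyme, had 58.2, 57.0 and 55.5 CPM in called cells of rhabdomyolysis libraries against 24.6, 22.002 and 24.6 CPM in control libraries (log2 change 1.56 ± 0.12, edgeR adjusted p = 6.21e-05). Tmem14c, a mitochondrial transporter for a heme precursor, rose by 1.23 ± 0.15 (edgeR adjusted p = 0.000406). In macrophages 4 of 14 rose and 1 fell, beside 17.7% and 17.6% of all genes. Among them Tmem14c rose by 0.89 ± 0.18 and Urod, of the same pathway, by 0.91 ± 0.21 on the log2 scale. In free RNA Tmem14c and Alas1 rose by 1.10 ± 0.22 and 0.84 ± 0.26. The Urod call was lost without control library 1 or 2, and that of Alas1 in free RNA without control library 2 or 3. Alas1 was nearly absent from the barcodes dominated by hemoglobin, with 1 UMI in rhabdomyolysis libraries beside 486 of Alas2.

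**Figure D5:**
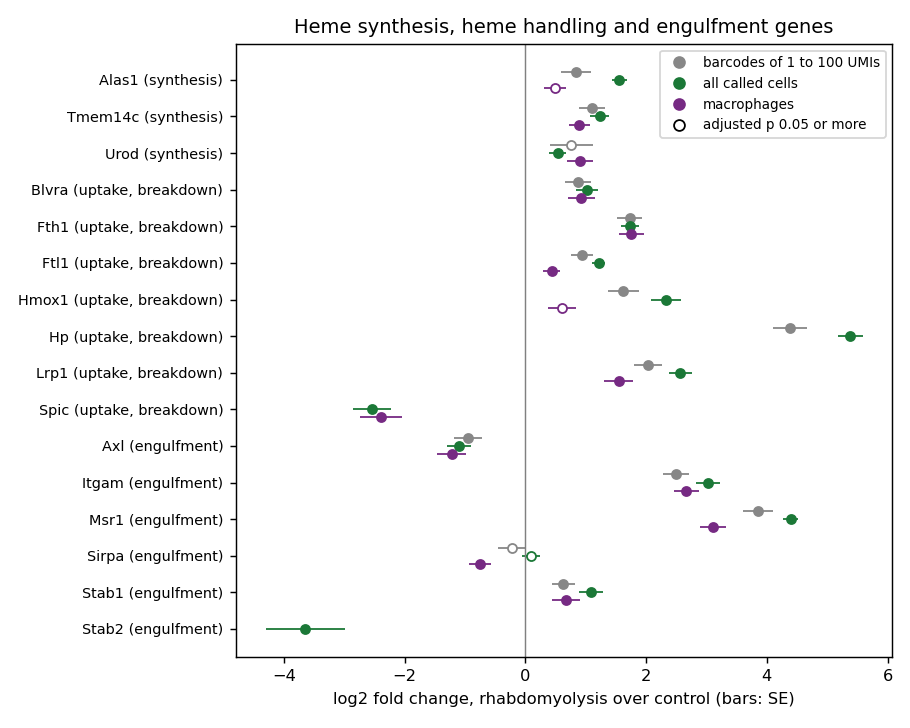
Log2 change, rhabdomyolysis over control, of named heme synthesis, heme handling and engulfment genes in barcodes of 1 to 100 UMIs, all called cells and macrophages; bars are standard errors and open points have an edgeR adjusted p of 0.05 or more. Msr1, Itgam, Fth1 and Lrp1 are higher in all 3 sums, and Axl is lower in all 3.

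Of 16 tested genes of the red cell cytosol and late erythroid list, 4 rose and 2 fell in called cells, where 23.0% of all genes rose and 23.3% fell. Without rich barcodes it was 2 and 2 of 15, where 23.0% of all genes rose and 23.4% fell. Epor, the erythropoietin receptor, fell: it had 2.85, 0.301 and 1.11 CPM in macrophages of rhabdomyolysis libraries against 17.0, 17.7 and 17.0 CPM in control libraries (log2 change −3.60 ± 0.45, edgeR adjusted p = 0.00103), and no UMI in hemoglobin-dominated barcodes. Car2, carbonic anhydrase, fell by 1.15 in called cells (SE 0.16, edgeR adjusted p = 0.000864) and by 1.58 without rich barcodes (edgeR adjusted p = 0.000369). Gclm, of glutathione synthesis, rose by 0.82 ± 0.12 (edgeR adjusted p = 0.000867).

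Of the red cell membrane genes, 2 of 9 changed, and of the erythroid transcription factors 4 of 7, where 46.4% of all genes did. In the membrane list, Slc2a1, the glucose transporter, rose by 1.89 ± 0.19 (edgeR adjusted p = 0.000195) and Dmtn fell by 2.65 (SE 0.43, edgeR adjusted p = 0.00163) in called cells. Of the erythroid factors, Nfe2, also a factor of myeloid cells, rose by 2.71 ± 0.30 (edgeR adjusted p = 0.000262), while Bcl11a, the repressor of fetal globin and a factor of B cells, fell by 2.26 (SE 0.20, edgeR adjusted p = 0.000104), Lmo2 by 0.66 and Ldb1 by 0.64; leaving out 1 library ended the call in 4 of 6 cases for Lmo2 (all but rhabdomyolysis libraries 2 and 3) and 5 of 6 for Ldb1 (all but rhabdomyolysis library 2). Gata1, Klf1, Tal1 and Gfi1b are core factors of the erythroid program and were, with Nfe2, at 0 in the rich barcodes. Lmo2, Zfpm1, Ldb1 and Zbtb7a were detected in rich barcodes of rhabdomyolysis libraries. None of the 9 other globins held enough counts for a test in any of the 3 sums.

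Genes whose level followed that of hemoglobin were sought over 69 sums of a barcode class in a library, by Pearson's r of log2(CPM + 1) among 9312 genes. The sums share libraries and depth, so r is a description. With all barcodes the 10 genes with the largest r were Saa3 and Csta2 (0.67 each), Clec4d (0.62), Mt2 (0.61), Mt1, Tagln and Fth1 (0.58 each), and Lcn2, Gpr84 and Adamtsl4 (0.57 each). Without rich barcodes they were Snhg9 (0.64), Lars2 (0.60), Gm42418 (0.58), Retnlg, Wfdc2, mt-Atp6, Saa3, S100a9, S100a8 and Gm49980 (0.47 to 0.55), so only Saa3, an acute-phase protein, was in both lists. No red cell gene was in either list.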

How the data were processed

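The deposited values are raw UMI counts per gene and barcode, not filtered for cells, of 32285 genes with 6 antibody tags. They were made with Cell Ranger 4, per the file headers, on build mm10, per the submitters' processing notes; intronic counting and strand settings are not given in the sources used here. The 5 genes and all gene lists were chosen with earlier results of these data known. Intervals and counts of 0 reflect counting error only.

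Cells were called and clustered with the 5 genes left out: at least 500 UMIs and 200 genes, at most 15% mitochondrial UMIs, and a multinomial test against barcodes of 1 to 100 UMIs (10000 draws, adjusted p at most 0.001). High doublet scores were removed (0.8% per 1000 cells). Clustering used 2000 variable genes among those in at least 20 cells, 30 components, 20 neighbours and Leiden resolution 1 (scanpy 1.11.5, leidenalg 0.10.2). Clusters took the class with most fixed markers over 2-fold above the median cluster; clusters under 0.1% Malat1 were set apart, and a class entered a comparison with at least 20 cells in a library. Barcodes of at least 500 UMIs shared by 2 libraries numbered 4 to 15 per pair.

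Summed counts were tested with edgeR 4.0.16 (R 4.3.3; quasi-likelihood, TMM, filterByExpr, no block), and DESeq2 1.42.0 was an alternative. On simulated counts with 200 genes changed 4-fold, edgeR recovered 196 (free RNA), 198 (called cells) and 198 (macrophages). Named list genes were up to 4 per list and comparison with the smallest adjusted p among those called, plus exceptions said to be chosen later; some genes that met these rules are not reported here. Same-numbered libraries were not paired by any label. The hemoglobin-rich threshold, the class naming thresholds, the split by innate lymphoid markers and the comparison of the 4 genes by class were chosen after the data were seen. Promoters are from RefSeq and matched all 5 genes; no protein sequence was used here.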

Additional observations from a re-analysis of the deposited data

How the results depend on the processing

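Values are log2 ratios of hemoglobin levels, rhabdomyolysis over control, unless said otherwise. Rhabdomyolysis replicate 2 decides most of them. Leaving out each library in turn, free RNA (3.21) ranged from 0.73 to 4.04, T cells (0.39) from −0.66 to 0.88, macrophages (8.72) from 2.44 to 9.43, Malat1-poor barcodes (12.94) from 11.68 to 13.47, all called cells (10.02) from 8.74 to 10.45 and whole libraries (4.20) from 2.82 to 4.68; the lowest value of each is that without rhabdomyolysis replicate 2. Without hemoglobin-rich barcodes, an alternative chosen after the data were seen, macrophages stood at 1.31, Malat1-poor barcodes at 2.45, called cells at 0.93 and whole libraries at 2.70. Called cells stood at 4.33 over all barcodes of at least 500 UMIs, also chosen later. With only the cells of each library below its median doublet score, T cells turned to −0.28 and macrophages to 1.02; with the mean over cells, Malat1-poor barcodes stood at 10.65.

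Against T cells of the same library, macrophages (0.97) turned to −0.58 with the lower doublet scores and to −0.92 without rich barcodes, classical monocytes (0.55) to −1.23 and Malat1-poor barcodes (4.76) to −0.76 without rich barcodes. Leaving out each library, they ranged from −0.39 to 1.68 for macrophages, −0.39 to 0.89 for monocytes, 3.47 to 5.96 for Malat1-poor barcodes, 1.72 to 6.47 for neutrophils and −0.29 to −0.05 for B cells; the negative ends for macrophages and monocytes are those without rhabdomyolysis replicate 2 and replicate 1. None of these tests passed, so no call was lost, and the cause of the changes in sign was not tested beyond the removal of the rich barcodes.

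List genes called ranged from 16 to 27 in free RNA (21 with all libraries), 30 to 42 in called cells (36) and 15 to 37 in macrophages (27) when a library was left out; in macrophages it was 17 without rhabdomyolysis replicate 1, and 17, 15 and 17 without control replicates 1, 2 and 3, with fewer samples in each fit. Over all genes, macrophage calls were 1770 higher and 1761 lower with all libraries; they were fewest without control replicate 2 (724 and 881) and most without rhabdomyolysis replicate 2 (2762 and 2640), and in free RNA fewest without control replicate 2 (698 and 621, against 1112 and 989). With at least 2 or at least 4 innate lymphoid markers, Hba-a1 was in 1 of 43 and 0 of 20 cells of rhabdomyolysis libraries and in 20 of 115 and 6 of 35 cells of control libraries. With the replicate number as a block, 21, 36 and 24 were called; same-numbered libraries correlated at −0.08 to 0.20, and the labels tie no numbers together. Depth limits the ordinary classes: T cells held 1 to 8 hemoglobin UMIs per rhabdomyolysis library and 13 to 22 per control library.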
